A study of Mus musculus with 12 samples.

Results

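Potassium channel subunits were examined as a class in the spinal cord of mice that lack TDP-43 in astrocytes. The members are the genes whose symbol starts with Kcn and whose mean is at least 1 TPM (a level per transcript length, scaled to a fixed library total) over 12 mice. Kcnj10 and Kcnj16, which encode inward rectifiers (Kir) of astrocytes, and Kcnd2 and Kcnip2, a Kv4 channel and a Kv4 partner, were set apart. Of 94 Kcn symbols in a table of 36121 rows, 69 were members, 4 were set apart and 21 lay below the level. Kcnn1 has 2 rows with near-identical values, so its level may be shared between copies; 1 row was used.

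RNA sequencing was done on whole spinal cord of C57BL6 mice aged 3 months, with 4 mice in each of 3 groups and 2 males and 2 females per group. Control mice were Tardbp-fl/fl without Cre. The cHet mice carried Gfap-Cre and the genotype Tardbp-fl/+, and the cKO mice carried Gfap-Cre and Tardbp-fl/fl. Every group therefore carried at least 1 floxed Tardbp allele, the gene for the RNA-binding protein TDP-43, and Cre was present in both the cHet and the cKO mice but in no control. Control and cKO mice thus differ in Cre as well as in recombination of Tardbp, and those cannot be told apart in that comparison. Cre is driven by the Gfap promoter, which is active in astrocytes, while the RNA came from every cell type of the cord.

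Potassium channels let potassium leave the cell, which sets the resting potential, ends the action potential and spaces the next one. Pore-forming subunits assemble as tetramers, or as dimers in the two-pore (K2P) family, and carry a conserved selectivity filter that passes potassium and holds back sodium. Auxiliary subunits have no pore and change where a channel goes or how fast it opens and closes. In spinal cord, Kv1 channels sit beside the nodes of Ranvier of myelinated axons, Kv3 channels serve fast firing, and K2P channels carry resting current in neurons and glia.

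The filter is shown here because it separates pore-forming members from auxiliary ones and lets the stretches of some called members be compared. It was searched for in the longest coding transcript of each gene (GENCODE M21, GRCm38) as 5 codons in frame, in order for threonine or serine, for valine, isoleucine, leucine or methionine, for glycine, for tyrosine, phenylalanine or leucine, and for glycine. Of 21630 protein-coding genes, 1.42% held the signature at least once, against 59 of the 69 members. The 10 members without it were auxiliary subunits (Kv1 beta, KChIP, KCNE and BK beta), and the 9 members with 2 were all K2P channels. The remaining K2P member, Kcnk1, held the signature only 1 time, so the search does not count every pore. The stretches below are the coding sense strand, 5′ to 3′, of pore-forming members called in at least 1 comparison and described below, with the 5 codons of the signature in capitals and 15 bases on each side.
Kcng4: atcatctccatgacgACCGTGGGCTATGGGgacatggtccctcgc
Kcnc4: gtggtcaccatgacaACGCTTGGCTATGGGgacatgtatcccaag
Kcna6: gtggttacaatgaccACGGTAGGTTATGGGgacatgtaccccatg
Kcnk13 first pore: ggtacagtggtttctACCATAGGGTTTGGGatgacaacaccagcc
Kcnk13 second pore: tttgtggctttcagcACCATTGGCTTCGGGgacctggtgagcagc
Kcnk12 first pore: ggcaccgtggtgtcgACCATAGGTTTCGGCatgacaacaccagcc
Kcnk12 second pore: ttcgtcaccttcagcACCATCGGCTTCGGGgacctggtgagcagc
Kcnk5 first pore: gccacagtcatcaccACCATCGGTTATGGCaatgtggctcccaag
Kcnk5 second pore: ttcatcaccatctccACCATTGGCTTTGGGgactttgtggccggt

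Kcne1l, also called, encodes a KCNE protein and has no such stretch. Kcnk12 and Kcnk13, which encode the 2 THIK channels, shared 38 of 45 bases in the first pore and 40 in the second, while the first and second pores of Kcnk13 shared 16.

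The libraries are described in ranges. The deposited TPM summed to 954895 to 978621 per library in control, 983452 to 1023987 in cHet and 1017855 to 1048381 in cKO. Every control total was below every total of the Cre-carrying mice. Levels, differences and overlaps of mice below are on this deposited scale unless another scaling is named. Between 15188 and 15384 genes reached 1 TPM. TPM keeps no read depth, so the depth behind a value is unknown. The targeted gene, Tardbp, had a mean of 171 ± 6.73 TPM in the control mice, 170.4 ± 8.64 in the cHet mice and 148 ± 5.06 in the cKO mice (mean ± SD, n = 4), and it fell in cKO against control by 0.20 on the log2 scale (limma adjusted p = 0.0113; exact permutation p = 0.0286, the smallest that 4 against 4 mice allow). It was not called in cHet against control (log2 difference -0.00, limma adjusted p = 0.984). Mitochondrially encoded genes held 16.04% to 18.3% of the TPM in control, 16.4% to 18.4% in cHet and 19.0% to 20.4% in cKO. Differences below come from limma on log2(TPM + 0.5) over 15259 genes, and a gene counts as called where its adjusted p is under 0.05. A fold on that scale understates the change of low genes. Since this is whole tissue, fewer cells of a type and less RNA per cell cannot be told apart.

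The members spanned a 430-fold range of mean level. In all, 5 members reached 100 TPM, 18 lay between 20 and 100 TPM, 24 between 5 and 20 TPM and 22 under 5 TPM. Kcnab2, the Kv1 beta subunit that attaches to Kv1 channels, was highest at 457 TPM and made up 19.9% of the members' summed TPM. Kcnc1 (Kv3.1, 127 TPM), Kcna1 (Kv1.1, 112 TPM) and Kcnab1 (another Kv1 beta subunit, 111 TPM) were also above 100 TPM, and the 5 members at that level held 46.6% of the sum. Kcnc1 and Kcna1 overlapped: the 12 mice ranged from 118 to 133 TPM for Kcnc1 and from 102 to 121 TPM for Kcna1. The median member lay at 11.2 TPM, below the 17.4 TPM of the median tested gene.

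**Figure D1:**
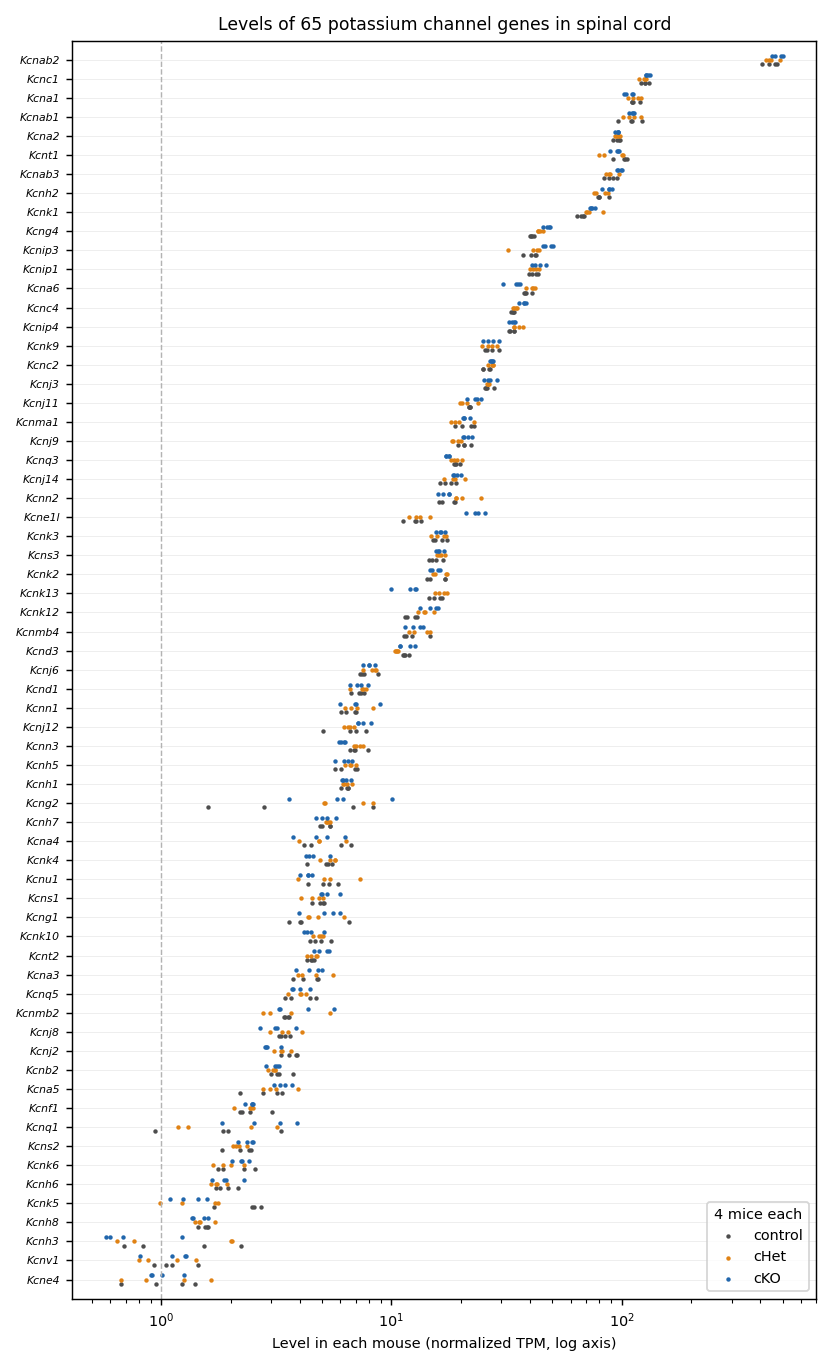
Level of 65 of the 69 members in each of 12 mice, ordered by mean, with normalized TPM on a log axis; each point is 1 mouse, grey for control, orange for cHet and blue for cKO, and the dashed line marks 1 TPM. The order runs from Kcne4 at 1.06 TPM to Kcnab2 at 457 TPM, and for most members the points of the 3 groups lie over each other.

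The members varied between mice about as much as other genes. Their median coefficient of variation within a group was 6.33% for control, 6.92% for cHet and 6.62% for cKO mice, against 6.83%, 7.69% and 6.72% over all tested genes. At the edge of the rule, Kcne4 (1.06 TPM), Kcnv1 (1.11 TPM) and Kcnh3 (1.15 TPM) lay just inside, and Kcnrg (0.704 TPM), Kcnmb1 (0.564 TPM) and Kcnj5 (0.560 TPM) just outside. Kcnh3, an ELK channel, is the one member whose cKO mean (0.772 TPM) was under the level.

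In cKO against control, 8 of the 69 members were called (11.6%), 6 higher and 2 lower. The background was 9.00% of all tested genes called, 5.75% higher and 3.25% lower, so the members' shares of 8.70% higher and 2.90% lower were near it. Among those described here, Kcne1l, Kcnk12, Kcng4 and Kcnc4 rose and Kcnk13 and Kcnk5 fell. The median log2 difference was 0.02 over the members and 0.01 over all tested genes, and the median absolute difference was 0.08 against 0.09. For 33 of the 61 uncalled members the 95% interval lay within 0.25 log2 units (1.19-fold) of 0; for the rest these mice could not resolve a difference of that size. By the likelihood ratio test of the authors' deposited table, a q-value under 0.05 was reached by 12 members, 8 higher and 4 lower, against 9.42% of all genes in it. Those 12 held the 8 called here and Kcnk1, Kcnip3, Kcnj2 and Kcnn3. The Wald test in the authors' deposited table passed 14 members, against 10.2% of all genes in it.

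**Figure D2:**
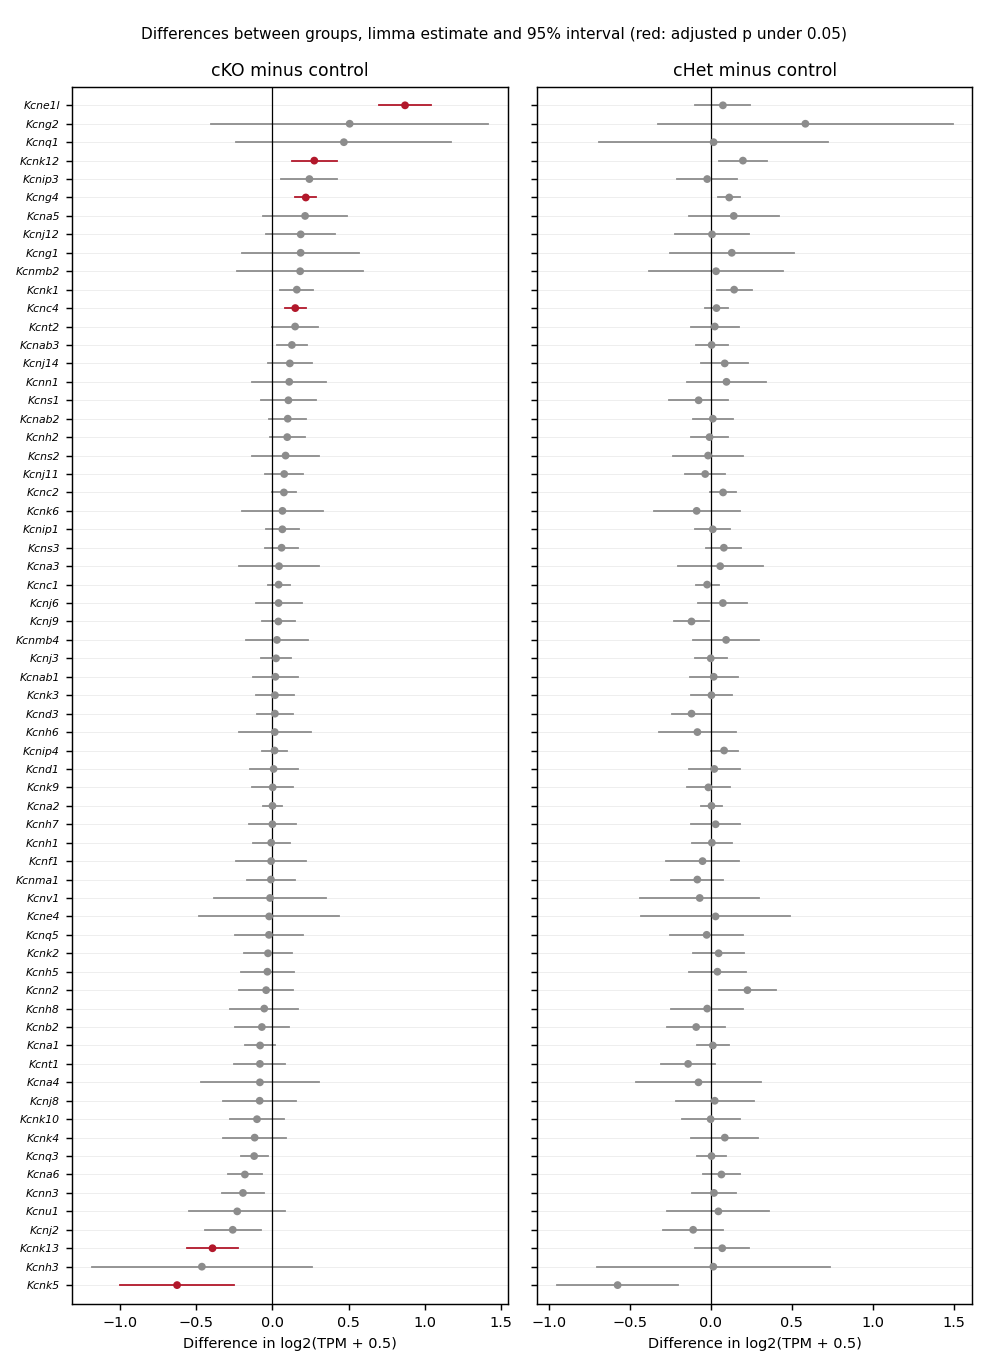
Log2 difference of 65 of the 69 members for cKO minus control (left) and cHet minus control (right), ordered by the left panel; points are limma estimates on log2(TPM + 0.5), lines are 95% intervals, and red marks an adjusted p under 0.05. On the left 6 of the members drawn are red, and none on the right, and both panels use the same 4 control mice.

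The largest called difference was in an auxiliary subunit. Kcne1l (ENSMUSG00000090122, GRCm38 chromosome X, 142304752 to 142306294, minus strand) encodes the protein also called KCNE5, a single-pass subunit known to damp the KCNQ1 channel. It stood at 12.6, 12.8, 13.4 and 11.2 TPM in the 4 control mice, at 11.9, 12.8, 13.3 and 14.8 TPM in the cHet mice and at 23.0, 23.8, 25.4 and 21.0 TPM in the cKO mice. All cKO mice were above all others, while control and cHet overlapped. Kcne1l rose 1.83-fold in cKO against control (log2 difference 0.87 ± 0.08, SE, limma adjusted p = 5.94e-05) and by 0.80 log2 units against cHet (limma adjusted p = 0.000146). Its likelihood ratio q-values in the authors' deposited tables were 0.000267 and 0.000387. Kcnq1, the channel KCNE proteins are best known for, was low and scattered, at 2.02 ± 0.982, 2.04 ± 0.962 and 2.88 ± 0.898 TPM in control, cHet and cKO (mean ± SD, n = 4), and was not called (limma adjusted p = 0.44 in cKO against control). The other measured KCNE gene among the members, Kcne4, was at 1.06, 1.11 and 1.02 TPM in the same order and was not called.

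Kcnq3, a Kv7 subunit of the M-channel that restrains repetitive firing, stood at 18.8, 19.8, 18.6 and 19.0 TPM in control, at 19.3, 18.8, 20.2 and 18.2 TPM in cHet and at 17.7, 17.7, 17.3 and 17.2 TPM in cKO. Every cKO mouse was below all others, but the log2 difference of -0.12 in cKO against control was not called (limma adjusted p = 0.0930).

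Kcnc4 (Kv3.4, a fast channel that helps neurons fire at high rates; ENSMUSG00000027895, chromosome 3, 107438303 to 107459552, minus strand) was at 33.9, 32.9, 33.6 and 33.7 TPM in control, 34.6, 35.0, 34.0 and 33.8 TPM in cHet and 35.7, 37.6, 38.2 and 37.6 TPM in cKO. The cKO mice were above all others, and control and cHet overlapped. Kcnc4 rose by 0.15 ± 0.03 log2 units against control (limma adjusted p = 0.0129), and the 0.12 against cHet was not called (limma adjusted p = 0.0620). With libraries set to equal totals without the mitochondrially encoded genes, the Kcnc4 difference against control was 0.098 and not called (limma adjusted p = 0.0587), and the 0.12 against cHet was called (limma adjusted p = 0.0387). Kcnc1 differed by 0.04 and Kcnc2 by 0.08 log2 units in cKO against control, and neither was called (limma adjusted p = 0.524 and 0.252).

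The silent Kv subunits cannot form channels alone and join Kv2 subunits to change their gating. Of 8 such members 1 was called. Kcng4 (Kv6.4; ENSMUSG00000045246, chromosome 8, 119623854 to 119635680, minus strand) was at 40.6, 40.1, 40.5 and 41.4 TPM in control, at 43.5, 43.4, 44.0 and 45.3 TPM in cHet and at 45.4, 47.5, 48.6 and 48.1 TPM in cKO. The 3 groups did not overlap, with cHet between control and cKO, although its highest mouse lay close to the lowest cKO mouse. Kcng4 rose 1.16-fold in cKO against control (log2 difference 0.22 ± 0.03, limma adjusted p = 0.00118). The differences of 0.11 for cHet against control and 0.11 for cKO against cHet were not called (limma adjusted p = 0.227 and 0.0826). With libraries set to equal totals without the mitochondrially encoded genes, the Kcng4 difference of cHet against control was 0.060 (limma adjusted p = 0.462), and that of cKO against cHet was 0.11. Kcnb2 (Kv2.2), a Kv2 subunit, was at 3.29, 3.05 and 3.11 TPM in control, cHet and cKO and was not called in any comparison.

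The 10 K2P members were the one family with calls in both directions, 1 higher and 2 lower in cKO against control. Kcnk13 (THIK-1, which carries the resting potassium current of microglia; ENSMUSG00000045404, chromosome 12, 99964499 to 100062682, plus strand) was at 16.6, 15.4, 14.5 and 16.2 TPM in control and at 17.4, 16.9, 15.5 and 16.02 TPM in cHet. In cKO it was at 12.01, 12.8, 12.6 and 9.93 TPM, below every other mouse. It fell by 0.39 ± 0.08 log2 units against control (limma adjusted p = 0.00829) and by 0.46 against cHet (limma adjusted p = 0.00414). A microRNA gene, Gm23291, is annotated on the opposite strand within it. Of 11 microglial marker genes, 9 rose and none fell in cKO against control, and their summed level was 372 to 388 TPM in control, 386 to 414 in cHet and 490 to 532 in cKO, the opposite direction to Kcnk13. The part of any cell type in the Kcnk13 value was not tested.

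Kcnk12 (THIK-2, ENSMUSG00000050138, chromosome 17, 87745801 to 87797994, minus strand) went the other way. The Kcnk13 pore stretches shared more bases with those of Kcnk12 than with those of Kcnk5, and no other gene was compared with them. Kcnk12 was at 12.9, 11.5, 11.6 and 12.7 TPM in control, at 13.0, 14.0, 13.8 and 15.4 TPM in cHet and at 14.7, 15.5, 15.9 and 13.3 TPM in cKO. On the deposited scale the control mice were below all Cre-carrying mice, as were their library totals, and cHet and cKO overlapped. That order was not tested with equal totals. Kcnk12 rose by 0.27 ± 0.07 log2 units in cKO against control (limma adjusted p = 0.0276), but the call failed under 6 of 18 alternatives (adjusted p up to 0.0820), among them without control replicate 2 or 3 and without cKO replicate 1, 2 or 3. The 0.20 for cHet against control was not called (limma adjusted p = 0.320), nor was the 0.08 for cKO against cHet (limma adjusted p = 0.631).

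Kcnk5 (TASK-2, a channel opened by alkaline pH; ENSMUSG00000023243, chromosome 14, 20140057 to 20181809, minus strand) had the largest called decrease and the least precise one. It was at 1.69, 2.73, 2.53 and 2.49 TPM in control, at 1.23, 1.71, 1.77 and 0.988 TPM in cHet and at 1.59, 1.09, 1.44 and 1.24 TPM in cKO. Control replicate 1 lay close to the Cre-carrying mice, and 2 cHet mice were above it. Kcnk5 fell by 0.63 ± 0.17 log2 units in cKO against control (limma adjusted p = 0.0408), but the call failed under 7 of 17 alternatives (adjusted p up to 0.116), among them without any 1 of replicates 2, 3 and 4 of control or of cKO. In cHet against control the difference was -0.58 (limma adjusted p = 0.267), and in cKO against cHet it was -0.05 (limma adjusted p = 0.927). The most abundant K2P gene, Kcnk1 (TWIK-1, a weak leak channel), was at 67.6, 68.3, 66.5 and 64.2 TPM in control, 71.9, 69.7, 70.9 and 82.8 TPM in cHet and 73.0, 73.8, 74.3 and 76.9 TPM in cKO. On the deposited scale its control mice were below every Cre-carrying mouse, as were their library totals. That order was not tested with equal totals. Kcnk1 was not called in cKO against control (0.16 ± 0.05, limma adjusted p = 0.0670), whereas the authors' deposited table gave a likelihood ratio q-value of 0.00526.

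**Figure D3:**
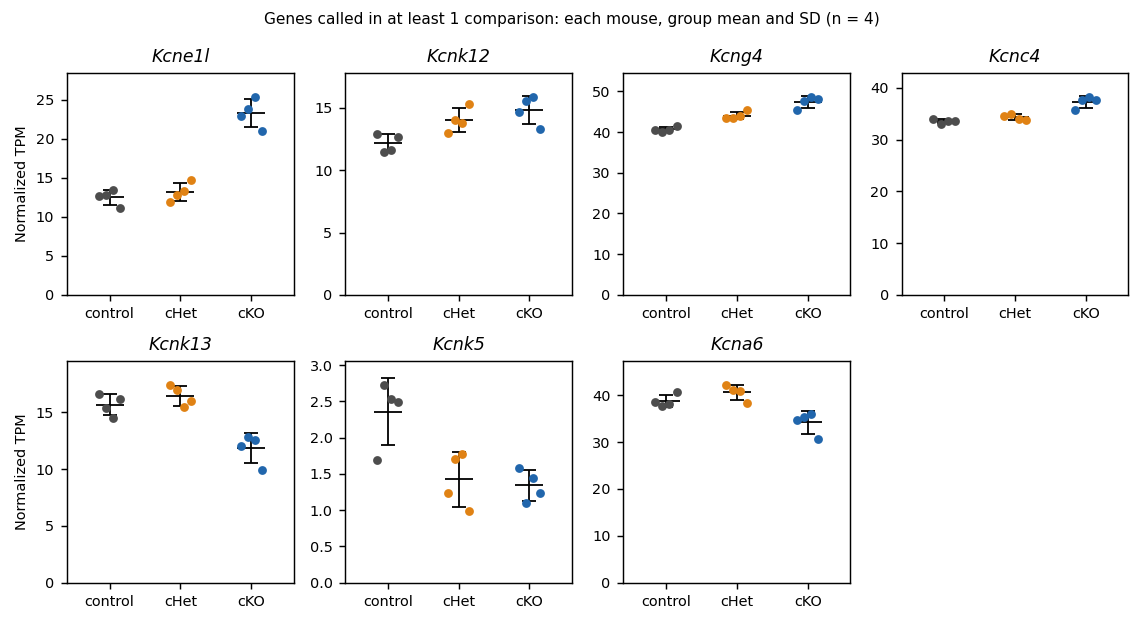
Normalized TPM in each mouse for 7 members called in at least 1 comparison; points are mice, the long bar is the group mean and the whiskers are the SD of 4 mice, with axes starting at 0. Kcne1l in cKO lies between 21.0 and 25.4 TPM, above all other mice, while the cHet means of Kcnk12 and Kcnk5 lie nearer to cKO than to control.

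The Kv1 family, the main channels under the myelin beside the node, held no call in cKO against control among its 6 pore-forming and 3 beta members. Kcna1 averaged 114 ± 4.34 TPM in control mice, 115 ± 6.29 in cHet mice and 107 ± 4.69 in cKO mice (mean ± SD, n = 4; log2 difference in cKO against control -0.08, limma adjusted p = 0.325). Kcna2 (Kv1.2), named after its values were seen, was at 95.6, 95.8 and 95.6 TPM in control, cHet and cKO, and the 95% interval of its cKO against control difference ran from -0.06 to 0.06 log2 units. Kcnab2 was at 445 ± 29.8, 448 ± 28.2 and 477 ± 23.7 TPM and was not called (limma adjusted p = 0.327). Kcnab3, also a Kv1 beta subunit, was at 89.7 ± 4.74, 90.0 ± 4.91 and 98.0 ± 2.37 TPM and was not called (limma adjusted p = 0.108). Its cKO mice were nevertheless above every control mouse. In the authors' deposited table its likelihood ratio q-value in cKO against control was 0.0539 and its Wald q-value 0.0310. Kcna6 (Kv1.6; ENSMUSG00000038077, chromosome 6, 126708329 to 126740674, minus strand, overlapped by the antisense gene Gm26673) was the exception in cKO against cHet. It was at 38.5, 37.7, 38.1 and 40.7 TPM in control, 42.2, 41.0, 40.8 and 38.3 TPM in cHet and 34.8, 35.3, 36.0 and 30.6 TPM in cKO, below both other groups in every cKO mouse. Kcna6 fell by 0.25 ± 0.05 log2 units against cHet (limma adjusted p = 0.0174), and the -0.18 against control narrowly missed the threshold (limma adjusted p = 0.0521). For Kcna6 against control the authors' deposited table gave a likelihood ratio q-value of 0.0522 and a Wald q-value of 0.0288. Whether the kit kept the strand is not given in the sources used here, so reads from any sequence that Gm26673 and Kcna6 share could not be told apart.

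Genes of the axonal Kv1 complex and of the node and paranode next to it were listed separately. Of these 15 tested genes, 2 rose and 3 fell in cKO against control, with a median log2 difference of -0.02. Over all tested genes 5.75% were called higher and 3.25% lower. Cntn2, the adhesion protein that holds Kv1 channels beside the paranode, fell from 100.3 ± 3.64 to 77.3 ± 4.13 TPM (limma adjusted p = 0.000362). The scaffold gene Dlg1 fell by 0.24 and the secreted-protein gene Lgi3 by 0.16 log2 units (limma adjusted p = 0.00199 and 0.0118). Lgi1 rose by 0.18 and Cntn1 by 0.12 (limma adjusted p = 0.0249 and 0.0224). Of 12 tested auxiliary and anchoring partners of other channels, 2 fell and none rose: Pex5l, the trafficking partner of HCN channels, from 197 ± 1.82 to 149.8 ± 5.42 TPM (limma adjusted p = 1.41e-05), and Lrrc55, a BK partner, by 0.27 log2 units (limma adjusted p = 0.0321). None of the 4 HCN genes was called. Of 12 myelin genes, 0 rose and 8 fell in the same comparison, with a median log2 difference of -0.36. The part of any cell type in the Cntn2 and Pex5l values was not tested.

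No Kv4, KChIP, inward rectifier, SK, BK, Slo or EAG-type member was called in any comparison. Among Kv4 and KChIP members, Kcnip3, a calcium-binding partner of Kv4 channels, was at 42.3, 40.3, 37.3 and 41.9 TPM in control, 43.0, 43.5, 41.4 and 32.2 TPM in cHet and 49.3, 46.5, 45.7 and 50.2 TPM in cKO. Its cKO mice were above all others, yet it was not called against control (0.24 ± 0.08, limma adjusted p = 0.10). The fit pools the spread of all 3 groups, and the SD was 2.28, 5.32 and 2.19 TPM in control, cHet and cKO. With only control and cKO in the fit Kcnip3 was called (limma adjusted p = 0.0201), the 1 of 18 alternatives to do so. Among 8 inward rectifiers, Kcnj2 (Kir2.1) had the smallest p, with 3.66 ± 0.277 TPM in control and 2.97 ± 0.226 in cKO (limma adjusted p = 0.0811). Of the 3 calcium-activated SK genes, Kcnn3 was at 7.08 ± 0.559, 7.17 ± 0.284 and 6.11 ± 0.175 TPM in control, cHet and cKO (limma adjusted p = 0.0812 against control). BK (Kcnma1, 21.1 and 20.9 TPM in control and cKO), the sodium-activated channel gene Kcnt1 (100.3 and 94.6 TPM) and ERG1 (Kcnh2, 81.6 and 87.2 TPM) were not called. For comparison, of the 4 genes set apart, Kcnj16 fell from 33.6 ± 0.582 to 19.0 ± 0.814 TPM (limma adjusted p = 1.14e-05) and Kcnj10, Kcnd2 and Kcnip2 were not called.

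In cHet against control, none of the 69 members was called, and 0% of all tested genes were. At an unadjusted p under 0.05 there were 7 members (10.1%) against 11.3% of all tested genes. The smallest limma adjusted p was 0.227, for Kcng4, and the authors' deposited table passed 0 members and 0% of all genes at a likelihood ratio q-value under 0.05. After Kcng4, the smallest p-values belonged to Kcnk5, Kcnk1, Kcnk12 and Kcnn2, an SK gene at 16.2 to 18.9 TPM in control and 19.1 to 24.4 TPM in cHet. The 4 cHet and 4 control mice did not overlap for 5 members (7.25%): Kcnk1, Kcnk12, Kcnn2 and Kcng4 were higher and Kcnd3 was lower. Over all tested genes the share not overlapping was 6.23%. The 95% interval lay within 0.25 log2 units of 0 for 41 of the 69 members.

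In cKO against cHet, both groups of which carry Cre, 5 members were called (7.25%), against 5.01% of all tested genes. Higher in cKO were 3 members, Kcne1l among them (4.35% of members, against 2.41% of all tested genes) and Kcnk13 and Kcna6 were lower (2.90% against 2.61%). Kcng4, Kcnc4, Kcnk12 and Kcnk5, called against control, were not called against cHet, which by itself does not show that they differ between the comparisons. In the authors' deposited table, 7 members had a likelihood ratio q-value under 0.05, against 3.78% of all genes: the same 5 and Kcnn2 and Kcnn3. Kcnn2 was at 15.9 to 17.8 TPM in cKO, below all cHet mice and overlapping control. Any pair of these comparisons shares a group of mice, so their values are given side by side and not set against each other.

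On the deposited scale, groups that did not overlap were more common than calls. In cKO against control this held for 16 members (23.2%), 11 higher and 5 lower, against 17.1% of all tested genes. In cKO against cHet it held for 14 members (20.3%), 9 higher and 5 lower, against 11.5% of all tested genes.

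Some of the called increases depended on how libraries were scaled. The members' summed TPM ran from 2211 to 2289 in control mice, 2229 to 2292 in cHet mice and 2319 to 2410 in cKO mice, so every cKO mouse was above all others on the deposited scale. With each library rescaled to the same TPM total (1000000), the sum was 2290 to 2365 in control, 2203 to 2305 for cHet and 2269 to 2316 for cKO, and that order was gone. When libraries were set to equal totals without the mitochondrially encoded genes, 9 members were called in cKO against control, 3 higher and 6 lower, and 5 of these were among the 8 called on the deposited scale. Of all 15259 tested genes 1295 were then called, 473 higher and 822 lower, against 878 higher and 496 lower on the deposited scale. The turn toward lower calls was thus not particular to the members. The median log2 difference over all tested genes was then -0.04 in both cKO and cHet against control, where it had been 0.01 on the deposited scale. Kcne1l and Kcng4 remained higher and Kcnk13 and Kcnk5 lower there. Kcnc4 and Kcnk12 kept a positive difference (0.098 and 0.22 log2 units) but were not called (limma adjusted p = 0.0587 and 0.0683), and Kcna6, Kcnj2, Kcnn3 and Kcnq3 were called lower. With median-of-ratios scaling the split was 6 higher and 3 lower for the members, and 699 higher and 575 lower over all tested genes.

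**Figure D4:**
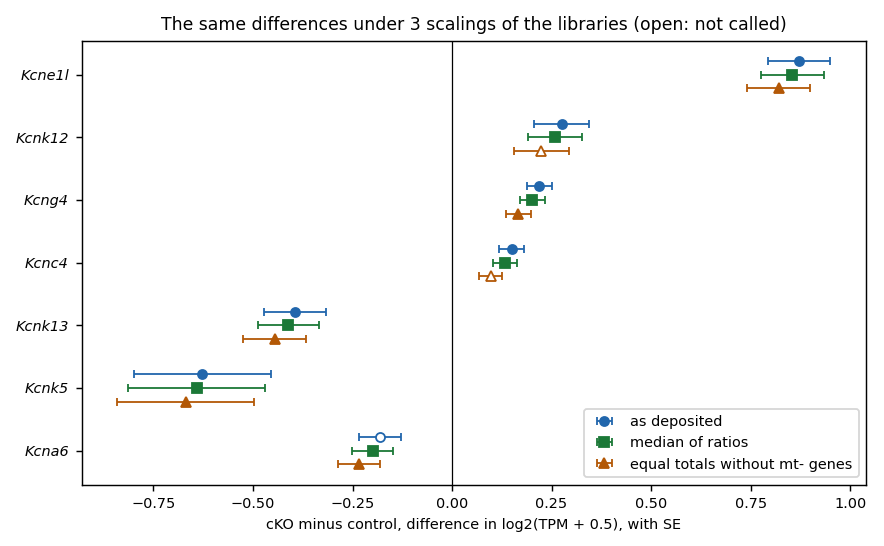
cKO minus control difference in log2(TPM + 0.5) with its SE for 7 called members, as deposited (circles), with median-of-ratios scaling (squares) and with equal totals without mitochondrially encoded genes (triangles); open symbols are not called. Every difference keeps its sign, and the triangles lie to the left of the circles by about the same step for each gene.

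Cell type markers moved between the same groups. In cKO against control, 0 of 12 myelin genes rose and 8 fell, with a summed level of 21362 to 22341 TPM in control, 21378 to 25362 in cHet and 17724 to 20198 in cKO. Of 7 oligodendrocyte precursor genes 3 fell, of 9 astrocyte genes 3 rose and 2 fell, and of 12 neuronal genes 3 rose and none fell (summed level 4303 to 4519 TPM in control, 4405 to 4667 in cHet and 4561 to 4798 in cKO). None of 9 motor neuron or 7 endothelial genes was called. Of 7 pericyte and smooth muscle genes 1 fell, of 3 tested Schwann cell genes 1 rose and 1 fell, and of 6 ependymal genes 1 rose. The microglial genes are given with Kcnk13 above. Over all tested genes 5.75% were called higher and 3.25% lower. No listed marker was at 0 in all mice, and Prx, Egr2 and Sostdc1 of the Schwann cell list were under 1 TPM. The part of these markers in the differences of the members and of the listed partner genes was not tested.

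No member differed detectably by sex. With group and sex in 1 limma model, no member was called between males and females (0% of all tested genes were), and the smallest member p was for Kcnj9, at an adjusted p of 0.781. For the difference between sexes in cKO against control, no member was called, against 0.00655% of all tested genes.

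TDP-43 is known to bind runs of alternating U and G in RNA, so runs of TG or GT of at least 12 bases were counted on the sense strand of the longest coding transcripts. Introns, which these spliced transcripts leave out, were not searched. Such runs occurred in 4 of the 69 members (5.8%) and in 5.2% of all protein-coding genes searched. Kcna4, Kcnk9 and Kcnc1 were among them, each with the run in the 3′ UTR, and none of these was called in any comparison. Those of Kcna4 and Kcnk9 are printed with the run in capitals, 5′ to 3′, to show the motif searched.
Kcna4 first run: tgaGTGTGTGTGTGTGaga
Kcna4 second run: gtaTGTGTGTGTGTGTctg
Kcnk9: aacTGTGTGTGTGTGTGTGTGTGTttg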

How the data were processed

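The authors deposited 1 table of normalized TPM, a signal per gene and mouse, and for each pair of groups a table with p-values and q-values of a likelihood ratio and a Wald test and an effect estimate. That estimate in the authors' tables appears to be on a natural log scale and only its sign was used. GRCm38, kallisto 0.44.0 and sleuth 0.30.0 are named in the submitters' processing notes; annotation release and any filter: not given in the sources used here. Libraries were TruSeq, from Trizol RNA, per the labels' protocols.

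Rows reaching 1 TPM on average over the mice were tested with limma 3.58.1 in R 4.3.3 (eBayes with trend, two-sided, all 12 mice in 1 fit, no covariate) on log2(TPM + 0.5), with Benjamini-Hochberg adjustment over 15259 genes. The procedure was tested on simulated data with independent noise for each gene and differences added in cKO only. Shifts in library scaling were not simulated. The members and lists were chosen with earlier results of these data known. Named genes were the called members, per family the highest member and the one with the smallest p, the genes nearest 1 TPM, the smallest p-values of the other comparisons and called genes of the context lists; other members were named to account for their families. Some members and other genes are not reported here by name; counts and shares include them. Each library is from a separate mouse by its label; no batch is given. Sequences and positions are from GENCODE M21 (GRCm38). Alternatives varied the pseudocount, filter, scaling, model and mice.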

Additional observations from a re-analysis of the deposited data

Results flagged for a closer look

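In a group of 4 mice, a sample was set apart when its gap to the nearest other, divided by the range of the group, was above Dixon's 95% critical value. This held in 7 of 78 groups tested, where chance gives about 1 in 20. Tardbp was 140 TPM in cKO replicate 4, below 150 to 151 in the other cKO mice. Kcna1 was 120 TPM in control replicate 4, above 111 to 112 TPM. Kcnk1 was 82.8 TPM in cHet replicate 4, above 69.7 to 71.9 TPM. Kcnh2 was 88.2 TPM in control replicate 3, above 79.3 to 79.5 TPM. Kcnh3 was 1.23 TPM in cKO replicate 2, above 0.577 to 0.682 TPM. Kcnj2 was 3.30 TPM in cKO replicate 3, above 2.82 to 2.89 TPM. Kcnma1 was 21.9 TPM in cKO replicate 4, above 20.4 to 20.7 TPM.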

How the results depend on the processing

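No paired analysis was possible because the labels give mouse numbers and no replicate numbers shared between groups. In cKO against control the count of called members was 6 to 8 with 1 mouse left out. Of all 15259 tested genes 815 to 1141 were then called, against 1374 with all mice. The count was 14 by the authors' deposited Wald test, which passed 10.2% of all genes in it. In cKO against cHet it was 4 to 6 with 1 mouse left out, where 532 to 715 of all tested genes were called, against 765 with all mice. With only the 2 groups in the fit it was 3, with 526 of all tested genes. In cHet against control the count of members was 0 throughout, and at most 2 of all genes were called. Kcne1l, Kcng4 and Kcnk13 kept their cKO against control call in all 18 limma alternatives, and Kcnc4 in 17. Against cHet, Kcne1l and Kcnk13 kept theirs in 18 and Kcna6 in 17 (adjusted p = 0.0555 with only the 2 groups). No called difference of a named member changed sign. Uncalled differences are counted as turned only where they changed sign and moved by more than 1 SE. With equal totals without mitochondrially encoded genes this held for Kcnj3 in cKO against control (-0.029) and for Kcna1, Kcnab3 and Kcnc4 in cHet against control (-0.042, -0.049 and -0.019), where Tardbp was at -0.057; the cause was not tested. With 1 mouse left out, Kcnip3 in cHet against control ran from -0.066 to 0.077, and Tardbp in cKO against cHet from -0.24 to -0.18, where the call was lost without cKO replicate 4 (adjusted p = 0.0522). With 4 mice a group and no read depth, small differences could not be resolved in many members. Level alone did not decide the SE of the pooled fit. In cKO against control the SE was 0.07 log2 units for Kcnt2 (mean 4.68 TPM) and 0.08 for Kcnip3 (mean 42.8 TPM). The Kcnip3 SE includes the spread of the cHet mice, 1 of which was at 32.2 TPM, so it does not describe control and cKO alone.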
